A study of Mus musculus with 9 samples.

Results

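Wild-type KH2 cells, a mouse embryonic stem (ES) cell line, were compared with KH2 cells labelled CBFA2T2 knockout, with 3 RNA-seq libraries on each side, 6 of the 9 libraries in the series. All genes that passed a filter on low counts entered the comparison, 16532 of the 33233 in the deposited tables. The third group, labelled PRDM14 knockout, served only to estimate the spread between replicates. The cells of every group were cultured with Lif on feeder cells that were taken away before RNA extraction, and polyadenylated RNA was made into strand-specific libraries. No other allele or treatment is named in the labels, and they do not say whether replicates were clones or cultures, so each p-value measures only the spread between these libraries.

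CBFA2T2 belongs to the MTG family of co-repressors, proteins that do not bind DNA themselves and that bring histone deacetylases to DNA-binding factors. In ES cells it is known as a partner of PRDM14, a DNA-binding protein needed by germ cells and ES cells, and MTG proteins also bind the E-proteins, the partners of basic helix-loop-helix factors. ES cells are known for fast growth with high ribosome production, and on leaving that state they can take up epithelial, trophoblast or germ-layer programmes.

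RNA of Cbfa2t2 (ENSMUSG00000038533, chromosome 2, 154436481 to 154539356 in GRCm38) was at 99.2, 44.9 and 84.8 CPM (counts scaled to library size) in knockout replicates 1, 2 and 3 and at 166, 159.6 and 177 in wild-type replicates 1, 2 and 3, the order used throughout. It fell (log2 fold change -1.14 ± 0.25 SE, adjusted p = 0.00753 by edgeR's quasi-likelihood test with Benjamini-Hochberg adjustment over all genes tested) and was not absent, with the lowest level in knockout replicate 2. A count over a whole gene cannot tell which exons are missing, and the word knockout follows the labels. Library totals ran from 10309196 counts in wild-type replicate 2 to 20129490 in knockout replicate 2. The first principal component of the 6 libraries held 82.1% of the variance, with the knockout at -39.63 to -29.14 and wild type at 28.44 to 36.22. Of 8 ES cell markers, 6 fell and 1 rose, and their summed level was 2962, 2530 and 3114 CPM in the knockout against 4529, 4553 and 4499 in wild type, so the cells of both groups carried these RNAs. Knockout replicate 2 had the highest sums of trophoblast and feeder markers. The 10 trophoblast markers summed to 889.5, 1425 and 597.2 CPM against 130.2, 108.4 and 114.4. The 16 feeder fibroblast markers summed to 1643, 2568 and 1580 against 1486, 1441 and 1485. The 9 primitive endoderm markers summed highest in replicate 1, at 102.3, 53.51 and 55.21 CPM against 81.75, 68.78 and 77.26. Of the trophoblast markers 6 rose and 1, Eomes, fell, and Elf5 was under the filter. Eomes lost its call without knockout replicate 1 or 2 or wild-type replicate 3 (adjusted p 0.051 to 0.0639). Krt8 and Krt18 made up most of the sum in the knockout, and both were highest in replicate 2, as was Krt7. Cdx2 (3.79, 1.63 and 1.94 CPM), Tfap2c (93.5, 94.9 and 115.8), Gata3, Ascl2 and Eomes were not highest there. Hand1 was near equal in replicates 1 and 2 (2.20 and 2.21 CPM). Of the feeder markers 4 rose (Col1a1, Thy1, Pdgfrb and Acta2) and 0 fell. No marker of these lists was at 0 in all 6 libraries. In bulk RNA, more or fewer cells of a type and more or less RNA per cell cannot be told apart.

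Of the 16532 genes, 3127 (18.9%) rose and 3240 (19.6%) fell, or 38.5% in either direction at an adjusted p under 0.05. At a change of at least 2-fold as well, 1191 (7.2%) rose and 611 (3.7%) fell. The median log2 fold change of all genes was 0.01, with quartiles of -0.32 and 0.38. Direction went with expression level: among the most abundant quintile of genes, with a mean of 77.5 CPM or more over the 6 libraries, 14.2% rose and 40.1% fell, whereas in the quintile next to the bottom, at 2.67 to 11.2 CPM, 22.7% rose and 11.9% fell. In the lowest quintile, up to 2.70 CPM, 13.2% rose and 6.4% fell. Protein-coding genes rose and fell equally often, at 21% each of 13706, while 8.2% of 2193 processed pseudogenes rose and 14% fell, and their reads can come from parent genes with near-identical sequence. The knockout libraries lay wholly above or wholly below the wild-type libraries for 8879 genes (53.7%). These shares are the background for the gene lists and single genes below.

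**Figure D1:**
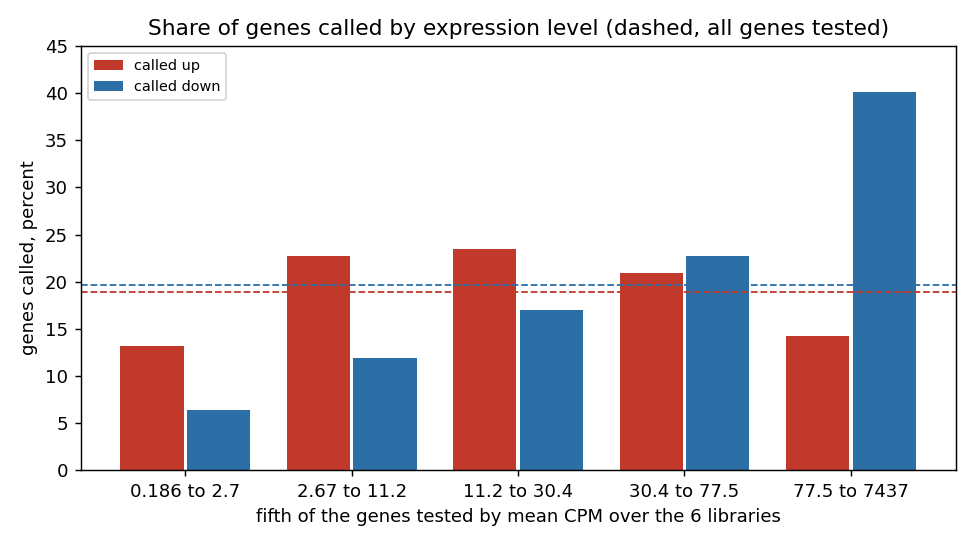
Percent of genes called up (red) or down (blue) in the CBFA2T2 knockout in each quintile of the 16532 genes by mean CPM over the 6 libraries; dashed lines mark the shares over all genes, 18.9% and 19.6%. Falls take 40.1% of the most abundant quintile and 6.4% of the lowest.

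**Figure D2:**
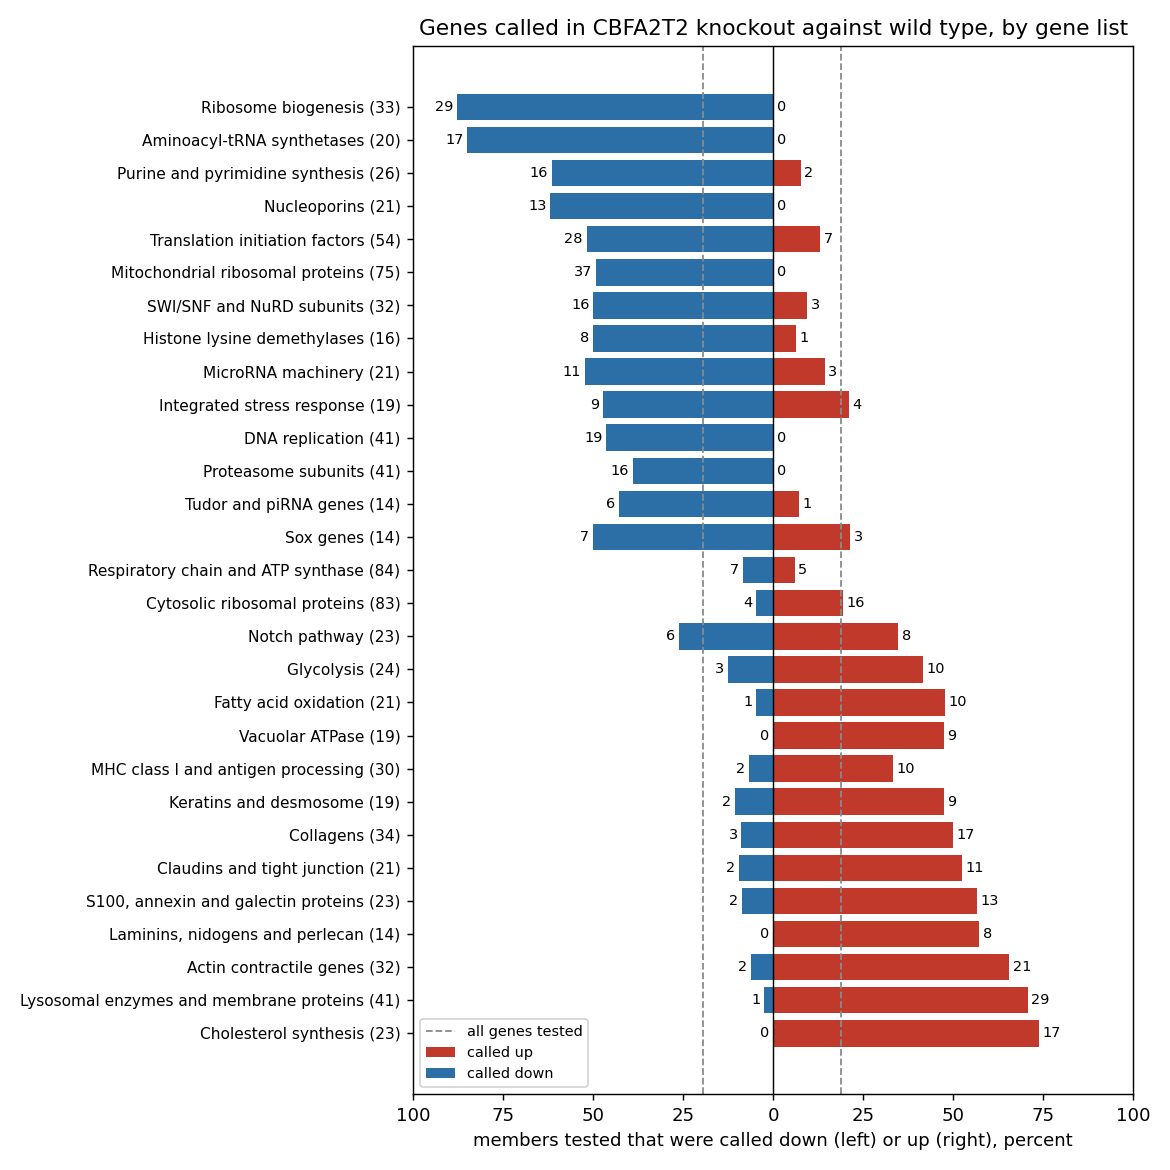
Percent of the tested members of 29 gene lists that were called up (red, to the right) or down (blue, to the left), with the number called at the end of each bar and the number tested after each list's name; dashed lines mark the shares over all genes. Ribosome biogenesis (29 of 33 down) and cholesterol synthesis (17 of 23 up) lie at the ends.

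RNA for making ribosomes fell. Of 33 ribosome biogenesis genes, 29 fell and 0 rose, the median log2 fold change being -0.56, against 19.6% of all genes falling. In the most abundant quintile, where 40.1% of all genes fell, 25 of its 28 members (89.3%) did. Ncl, nucleolin, a major protein of the nucleolus, stood at 3018, 2825 and 3343 CPM in the knockout and 4769, 5002 and 4879 in wild type. Ncl fell by 0.67 ± 0.07 (log2, SE, adjusted p = 1.28e-05). Nolc1, a nucleolar phosphoprotein that carries small nucleolar RNPs, was at 381, 335 and 367 against 669.7, 697 and 686 CPM (log2 fold change -0.92 ± 0.09 SE, adjusted p = 4.2e-06). Polr1b, the second largest subunit of RNA polymerase I, was at 107, 95.9 and 108 against 194, 189 and 198 CPM (log2 fold change -0.91 ± 0.08 SE, adjusted p = 2.91e-06). The processing factors Heatr1 (-0.90 ± 0.09, adjusted p = 1.1e-05) and Bop1 (-0.89 ± 0.09, adjusted p = 1.15e-05) fell to a similar degree. Polr1a, the largest subunit of the polymerase, was at 247, 219.8 and 261 against 322, 319 and 323 CPM and was not called (log2 fold change -0.41 ± 0.20 SE, adjusted p = 0.139), though its groups did not overlap; a fit on the 6 libraries alone gave an adjusted p of 0.000338. The count of falls was 24 without knockout replicate 2.

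RNA of the MYC proteins, transcription factors that are known to drive ribosome production, fell too. Myc (ENSMUSG00000022346, chromosome 15, 61985341 to 61990374 in GRCm38) was at 22.4, 18.6 and 14.9 CPM in the knockout and 49.8, 62.2 and 57 in wild type (log2 fold change -1.59 ± 0.19 SE, adjusted p = 7.12e-05). Mycn, the form best known from embryonic and neural cells, was at 153, 95.9 and 165 against 315, 318 and 349.6 CPM (log2 fold change -1.25 ± 0.21 SE, adjusted p = 0.00163). Max, their common partner, was at 71.2, 72.3 and 89.3 against 111, 116 and 119.9 CPM (log2 fold change -0.58 ± 0.10 SE, adjusted p = 0.000528). The knockout libraries lay below every wild-type library for all 3 genes, and the groups did not overlap for 53.7% of all genes tested.

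Most charging enzymes fell, and so did 37 of 75 mitochondrial ribosomal proteins and 28 of 54 initiation factors, beside 19.6% of all genes. All 20 aminoacyl-tRNA synthetases tested lay in the most abundant quintile, and 17 fell with 0 rises (median -0.36). Wars, which charges tRNA with tryptophan, was at 98.7, 92.1 and 92.8 against 153, 154 and 159 CPM (log2 fold change -0.72 ± 0.07 SE, adjusted p = 5.04e-06), with no overlap. Aars (-0.59), Cars (-0.50) and Tars (-0.49), for alanine, cysteine and threonine, also fell. Without knockout replicate 2 the falls numbered 11. Of the mitochondrial ribosomal proteins 0 rose and 38 were not called (median -0.28), and few of them, 5, were in the most abundant quintile. Mrpl22 was at 10.7, 6.86 and 9.47 against 15.9, 18.6 and 19.2 CPM (log2 fold change -0.99 ± 0.18 SE, adjusted p = 0.000692), and Mrpl34 (-0.74), Mrpl20 (-0.73) and Mrpl52 (-0.71) followed. Of the translation initiation factors 7 rose and 19 were not called (median -0.21), and 23 of the 41 (56.1%) in the most abundant quintile fell, where 40.1% of all genes did. The falls included Eif4ebp2, which holds the cap-binding protein inactive (-0.61), and Eif4g2, a scaffold for internal initiation, at 1640.0, 1584 and 1505 against 2222, 2256 and 2327 CPM (log2 fold change -0.52 ± 0.07 SE, adjusted p = 3.84e-05).

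The cytosolic ribosomal proteins themselves were mostly not called. Of 83 genes, 63 were not called, 16 rose and 4 fell (median 0.12), so that 19.3% rose, beside 18.9% of all genes, and 4.8% fell, beside 19.6%. Of the 54 in the most abundant quintile 14 (25.9%) rose and 1 (1.9%) fell, where 14.2% and 40.1% of all genes did. Rps12, a small-subunit protein, was at 143, 121 and 126 against 99.5, 90.2 and 72 CPM (log2 fold change 0.57 ± 0.12 SE, adjusted p = 0.00246), and Rps29 (0.49) and Rpl39 (0.57) rose too. Rpl10l, a retrogene copy of Rpl10, was at 8.42, 5.13 and 9.0 against 19.8, 21.1 and 21.9 CPM and fell (log2 fold change -1.49 ± 0.28 SE, adjusted p = 0.00155). Rpl7l1, a paralog of Rpl7 that acts in ribosome assembly, fell by 0.66 (log2). The translation elongation factor Eef2 rose from 3408, 3214 and 3293 CPM to 4064, 4081 and 4206 (log2 fold change 0.32 ± 0.07 SE, adjusted p = 0.00439). Eef1a1, which delivers charged tRNAs to the ribosome, was at 6471, 6041 and 6891 against 5605, 5417 and 5568 CPM (log2 fold change 0.23 ± 0.08 SE, adjusted p = 0.029), and lost its call without knockout replicate 1 or 3 or any 1 wild-type library (adjusted p 0.0541 to 0.104). Without knockout replicate 1 or wild-type replicate 3 the rises among ribosomal proteins numbered 9, and without knockout replicate 3 the falls numbered 7. A fit on the 6 libraries alone gave 26 rises and 10 falls. Ribosomal protein genes have many near-identical pseudogenes, so their counts are uncertain.

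**Figure D3:**
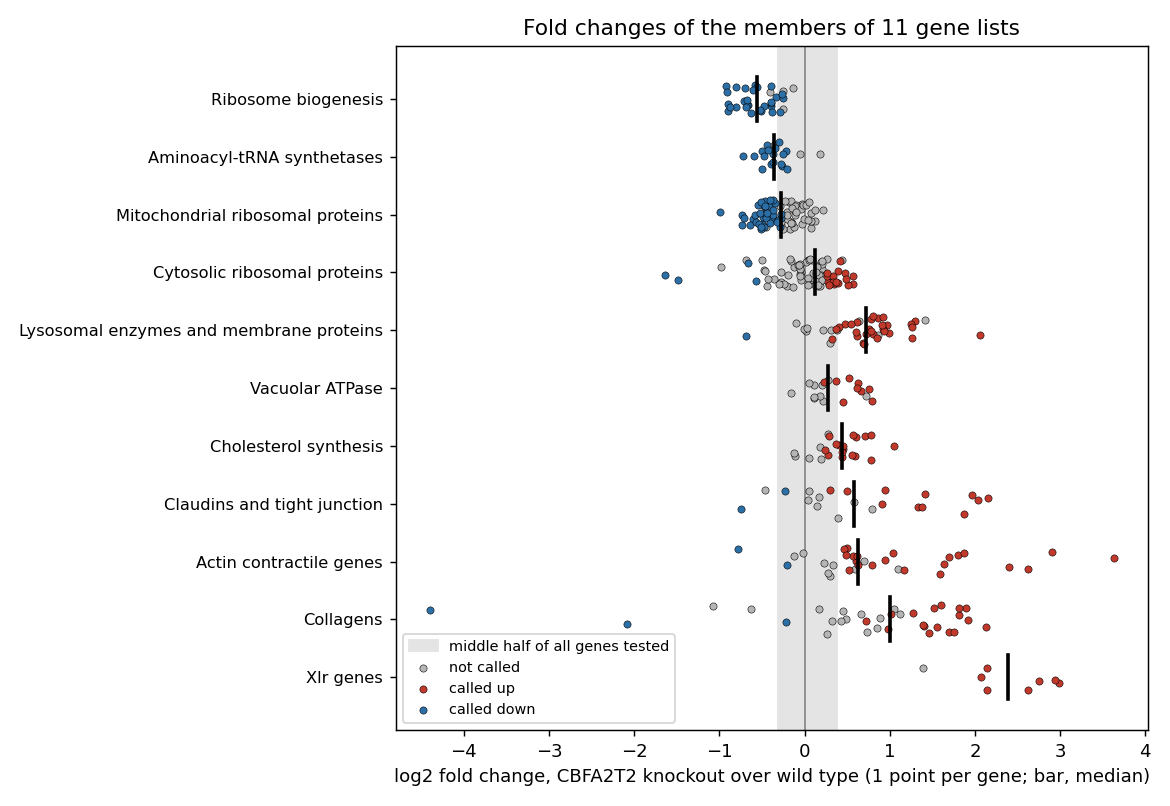
Log2 fold change, CBFA2T2 knockout over wild type, of each tested member of 11 gene lists (points; red called up, blue called down, grey not called) with the list's median (bar); the shaded band spans the quartiles of all genes tested. The median of ribosome biogenesis, -0.56, lies left of the band and that of the lysosomal genes, 0.72, right of it.

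Stress-response genes, with amino acid carriers among them, fell more often than they rose. Of 19 genes of the integrated stress response, the programme run by the transcription factor ATF4, 9 (47.4%) fell and 4 (21.1%) rose. Of all genes 19.6% fell and 18.9% rose. In the most abundant quintile, where 40.1% of all genes fell, 6 of its 10 members (60.0%) did. The rises numbered 2 without wild-type replicate 2 or 3. Atf4 was at 254, 280.4 and 247 against 407, 393 and 380.1 CPM (log2 fold change -0.59 ± 0.10 SE, adjusted p = 0.00034). Slc7a3, a carrier of cationic amino acids such as arginine and lysine, was at 43.1, 26.8 and 36.3 against 178, 193 and 198 CPM (log2 fold change -2.43 ± 0.19 SE, adjusted p = 1.03e-05), with the highest knockout library far below the lowest wild-type library. Its relative Slc7a1 was at 64.2, 54.7 and 57.7 against 141, 157 and 167 CPM (log2 fold change -1.40 ± 0.12 SE, adjusted p = 3.63e-06). Chac1, which breaks down glutathione, stood at 10.1, 8.49 and 6.21 against 34.7, 35.2 and 35.5 CPM (log2 fold change -2.08 ± 0.16 SE, adjusted p = 9.55e-07), and Trib3, a pseudokinase that feeds back on ATF4, at 20.5, 17.5 and 14.6 against 48.1, 50.8 and 50.9 (log2 fold change -1.50 ± 0.19 SE, adjusted p = 7.36e-05). The rises were of Ddit4, an inhibitor of mTORC1, at 247, 244 and 227 against 110.0, 115 and 109 CPM (log2 fold change 1.10 ± 0.08 SE, adjusted p = 9.42e-07), of the stress transcription factors Atf3 (1.54) and Ddit3 (0.99), and of Ppp1r15a (0.35), which restores translation. Ppp1r15a was not called without knockout replicate 2 or any 1 wild-type library (adjusted p 0.0526 to 0.118). Atf3 was at 48.4, 88.2 and 36.8 against 23.6, 18.2 and 18 CPM and lost its call without wild-type replicate 2 or 3 (adjusted p 0.0556 and 0.06). Asns, asparagine synthetase, another ATF4 target, was at 463, 419 and 414 against 381, 334 and 345 CPM and was not called (log2 fold change 0.29 ± 0.12 SE, adjusted p = 0.066); it was called in 4 other settings, with an adjusted p of 0.0469 by the DESeq2 Wald test.

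The letters TGATGNAA, the composite element that ATF4 is known to bind, are shown because they mark both a stress-response and a tRNA synthetase group of genes. In the 250 bases before the RefSeq start (GRCm38.p6), searched on both strands, they were found in 4 of 17 stress-response genes (23.5%), 3 of 12 tRNA synthetase genes (25.0%) and 258 of 10559 tested genes with a promoter in the table (2.4%). The element itself or its reverse complement is in capitals, and each line runs 5′ to 3′ on the strand of the gene.
Chac1 (chr2:119351037-119351068, + strand): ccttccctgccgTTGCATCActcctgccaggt
Atf3 (chr1:191183424-191183455, - strand): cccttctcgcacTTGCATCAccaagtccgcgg
Asns (chr6:7693213-7693244, - strand): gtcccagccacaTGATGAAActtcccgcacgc
Nupr1 (chr7:126625561-126625592, - strand): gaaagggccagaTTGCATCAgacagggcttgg
Gars (chr6:55037959-55037990, + strand): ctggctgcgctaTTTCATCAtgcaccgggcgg
Tars (chr15:11399659-11399685, - strand): ccaggagtcccgTTGCATCAgctggtt
Of the 6 genes printed, Chac1 (-2.08), Gars (-0.36) and Tars (-0.49) fell and Atf3 rose (1.54), while Asns (0.29) and Nupr1 (-0.04) were not called. Gars lost its call without knockout replicate 2 or wild-type replicate 2 or 3 (adjusted p 0.0501 to 0.0766), and Nupr1 was at 24.2, 21.1 and 23.7 against 26.9, 21.2 and 22.7 CPM, with overlapping groups. A match is a description of these letters, not a site of binding.

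Genes of nucleotide synthesis, DNA copying and nuclear transport fell in larger shares than the 19.6% of all genes, and most of them were in the most abundant quintile, where 40.1% of all genes fell. Of 26 purine and pyrimidine synthesis genes, 16 fell and 2 rose (median -0.30), with 13 falls among the 19 (68.4%) in that quintile. Ppat, the committed step of purine synthesis, was at 162, 135 and 146 against 216, 235 and 221 CPM (log2 fold change -0.60 ± 0.08 SE, adjusted p = 0.000114), and Prps2 (-0.88), Dhodh (-0.73), Impdh1 (-0.68) and Prps1 (-0.68) fell too. The 2 rises were Adssl1 (1.58) and Ctps2 (0.39), and 1 gene rose, Ctps2 losing its call, without knockout replicate 2, wild-type replicate 1 or wild-type replicate 3. Mat2a, which makes S-adenosylmethionine, was at 191, 142 and 169 against 379, 397 and 394 CPM (log2 fold change -1.22 ± 0.21 SE, adjusted p = 0.00216). Of 41 DNA replication genes 19 fell and 0 rose (median -0.23), with 16 falls among the 27 (59.3%) in that quintile, but 12 fell without knockout replicate 2. Orc2, of the origin recognition complex, fell by 0.93 (log2) but shares 29.8% of its exon bases with Nif3l1. Mcm5, of the replicative helicase, was at 552, 518 and 554 against 758, 786 and 781 CPM (log2 fold change -0.52 ± 0.08 SE, adjusted p = 0.000233), while its partner Mcm2 was not called (log2 fold change -0.35 ± 0.16 SE, adjusted p = 0.0988), though a fit on the 6 libraries alone gave an adjusted p of 0.00038. E2f8, a repressor of the E2F family, was at 63.9, 52.6 and 60.2 against 125, 149 and 159 CPM (log2 fold change -1.29 ± 0.11 SE, adjusted p = 2.11e-06), and of 13 E2F and RB genes 5 fell and 0 rose. Of 21 nucleoporins 13 fell and 0 rose, 12 of the 17 (70.6%) in the most abundant quintile falling, with Nup93 at -0.59 and Nup153 at -0.48, but 6 fell without knockout replicate 2, 8 without wild-type replicate 2 and 6 without wild-type replicate 3. Of 41 proteasome subunits 16 fell and 0 rose, led by Psmb10 (-1.12), a subunit of the immunoproteasome; of the 30 in the most abundant quintile 13 (43.3%) fell, close to the 40.1% of all genes there. Cdk1, the mitotic kinase, was not called (log2 fold change -0.13 ± 0.10 SE, adjusted p = 0.368), and Cdkn1a, the p21 inhibitor of cyclin-dependent kinases, rose from 95.4, 76.3 and 70.9 CPM to 208, 264 and 191 (log2 fold change 1.45 ± 0.16 SE, adjusted p = 7.62e-05), while Trp53, the gene of p53, fell (log2 fold change -0.71 ± 0.08 SE, adjusted p = 1.28e-05).

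Chromatin and small-RNA regulators fell in larger number than they rose. Of 32 SWI/SNF and NuRD subunits 16 fell, 3 rose and 13 were not called (median -0.23), and 13 of the 24 (54.2%) in the most abundant quintile fell, beside 40.1% of all genes there. A fit on the 6 libraries alone gave 5 rises. Arid1a, a DNA-binding subunit of the BAF complex, was at 384, 354 and 396 against 735, 769 and 839.8 CPM (log2 fold change -1.05 ± 0.09 SE, adjusted p = 2.54e-06). Smarca4, its ATPase, was called at -0.29 ± 0.11 (adjusted p = 0.0453) but not in 5 of the 6 fits that left out 1 library, the exception being that without knockout replicate 3. Smarca2, the alternative ATPase, rose from 5.25, 4.40 and 4.07 CPM to 10.5, 11.4 and 10.8 (log2 fold change 1.25 ± 0.18 SE, adjusted p = 0.000121). Of 16 histone lysine demethylases 8 fell and 1 rose, all 8 falls among the 12 (66.7%) in that quintile. The falls include Kdm5b, which removes H3K4 methylation, at 364, 380.4 and 433 against 641, 623 and 674 CPM (log2 fold change -0.72 ± 0.09 SE, adjusted p = 3.78e-05). Of 21 genes of the microRNA machinery 11 fell and 3 rose, with 10 falls among the 15 (66.7%) in that quintile and 5 rises without wild-type replicate 3. Lin28a, which blocks let-7 maturation, was at 309.7, 287 and 251 against 506, 506 and 537 CPM (log2 fold change -0.87 ± 0.08 SE, adjusted p = 3.8e-06). Trim71, an RNA-binding ubiquitin ligase and let-7 target, was at 161, 155 and 148 against 265, 251 and 309 CPM (log2 fold change -0.83 ± 0.11 SE, adjusted p = 0.000103). Dicer1 was called at -0.23 (adjusted p = 0.0271) but not without knockout replicate 1 or 2 or wild-type replicate 1 or 3 (adjusted p 0.0811 to 0.127).

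**Figure D4:**
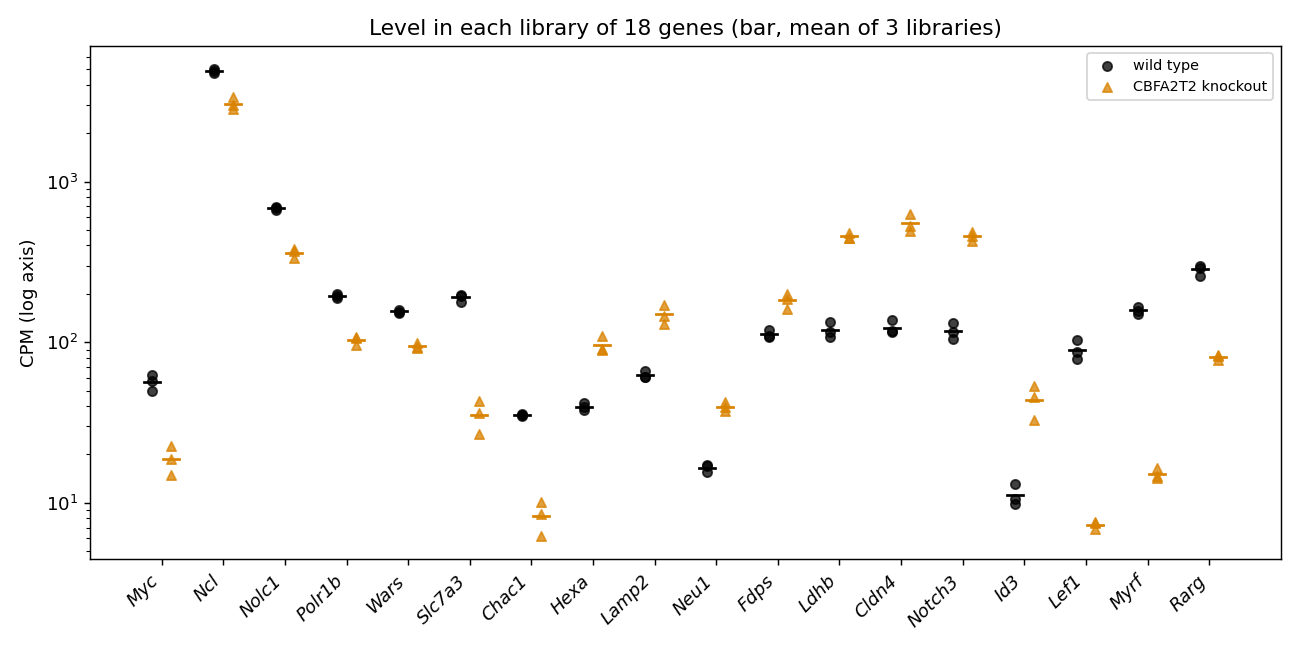
CPM on a log axis of 18 genes in each of the 3 wild-type libraries (black circles) and 3 CBFA2T2 knockout libraries (orange triangles), with the mean of each group as a bar. The 2 groups do not overlap for any of the 18 genes, as for 53.7% of all genes tested. Lef1 (log2 fold change -3.61) and Myrf (-3.38) fell most and Cldn4 (2.16) rose most of those drawn.

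Most lysosomal genes rose. Lysosomes break down proteins, lipids and glycans with acid hydrolases, and their genes share a short promoter element that the factors TFEB and TFE3 bind. Of 41 lysosomal enzymes and membrane proteins, 29 rose, 1 fell and 11 were not called (median 0.72), against 18.9% of all genes rising. All 11 members in the most abundant quintile rose, where 14.2% of all genes did. Hexa, a subunit of the hexosaminidase that clears gangliosides, was at 91.2, 110.0 and 88.9 CPM in the knockout and 41.6, 39.3 and 37.6 in wild type (log2 fold change 1.29 ± 0.11 SE, adjusted p = 1.5e-06). Neu1, the lysosomal sialidase, was at 37.1, 42.6 and 39.3 against 15.5, 17 and 17.2 CPM (log2 fold change 1.26 ± 0.13 SE, adjusted p = 9.21e-06). The lowest knockout library was at least 1.5 times the highest wild-type library for both genes. Lamp2 (ENSMUSG00000016534, chromosome X, 38401357 to 38456454 in GRCm38), a membrane protein that takes part in autophagy, was at 130.2, 146 and 170.3 against 66.3, 61.1 and 60.7 CPM (log2 fold change 1.25 ± 0.10 SE, adjusted p = 1.76e-06), again without overlap. The lowest rises were of Ppt1 (0.32), Npc1 (0.37) and Lamp1 (0.41). Ppt1 lost its call without knockout replicate 2 or 3 or wild-type replicate 2 or 3 (adjusted p 0.0928 to 0.134) and with limma-voom (adjusted p = 0.0518), and Npc1 without knockout replicate 2 or wild-type replicate 2 (adjusted p 0.055 and 0.057). Of the 29 rises, 20 were highest in knockout replicate 2, or 69.0%, against 49.2% of all rises; without that library 27 members rose.

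Genes of the proton pump that acidifies lysosomes rose in part, 47.4% of those tested beside 18.9% of all genes. Of 19 vacuolar ATPase genes 9 rose and 0 fell (median 0.27), with Atp6v1g1 at 14.3, 14 and 13.3 against 8.74, 8.09 and 7.18 CPM (log2 fold change 0.79 ± 0.14 SE, adjusted p = 0.00069) and the accessory subunit Atp6ap1 at 96.1, 98.1 and 87.3 against 59, 54 and 53.7 (log2 fold change 0.76 ± 0.08 SE, adjusted p = 1.37e-05). RNA of the factors that are known to switch these genes on did not rise, and their protein level and activity were not tested. Tfeb, kept on the list and its 1 fall, was at 19.1, 18.7 and 22.8 against 28, 31.8 and 37.2 CPM (log2 fold change -0.68 ± 0.14 SE, adjusted p = 0.00167), and Tfe3 at 117, 113 and 109.7 against 228, 223 and 244 (log2 fold change -1.03 ± 0.07 SE, adjusted p = 5.27e-07). Mitf, of the same family, was not called (log2 fold change -0.55 ± 0.25 SE, adjusted p = 0.102), with an adjusted p of 0.0499 without knockout replicate 1. Autophagy genes were mixed, with 8 of 30 up and 6 down; the falls numbered 3 without knockout replicate 1 or wild-type replicate 3.

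The E-box letters CACGTG form the core of the element bound by TFEB and TFE3, and MYC with MAX binds the same letters. They were found in the 250 bases before the start of 10 of 33 lysosomal genes with a promoter in the RefSeq table (30.3%), 1 of 27 ribosome biogenesis genes (3.7%) and 1045 of 10559 tested genes (9.9%). The letters read the same on both strands, and matches could overlap. The promoter of Lamp1 holds 4 copies in 80 bases, and 1 copy is shown for each of 7 other genes; capitals mark the E-box.
Lamp1 (chr8:13159081-13159160, + strand): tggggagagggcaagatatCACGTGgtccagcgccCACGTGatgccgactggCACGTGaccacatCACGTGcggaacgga
Ctsa (chr2:164833749-164833772, + strand): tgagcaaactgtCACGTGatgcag
Arsa (chr15:89477425-89477452, - strand): tcaactcagtgtCACGTGttgtctgctc
Gaa (chr11:119267811-119267840, + strand): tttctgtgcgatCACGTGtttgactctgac
Glb1 (chr9:114401018-114401047, + strand): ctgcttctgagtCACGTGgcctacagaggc
Mcoln1 (chr8:3500436-3500465, + strand): ggtcgcgcttgtCACGTGttcagttcaggc
Ctsd (chr7:142387908-142387937, - strand): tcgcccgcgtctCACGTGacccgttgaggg
Cln3 (chr7:126583368-126583397, - strand): gcaaccctcaagCACGTGatggaaggctca
Of the 10 lysosomal genes with the letters, 8 rose and 0 fell (median 0.58), and of the 23 without them, 13 rose and 1 fell (median 0.76). Among those printed, Mcoln1, a calcium channel of the lysosome, was at 43.5, 42.5 and 42.6 against 26.9, 26 and 21.9 CPM (log2 fold change 0.78 ± 0.10 SE, adjusted p = 5.88e-05), and Glb1, the acid galactosidase, was not called (log2 fold change 0.30 ± 0.13 SE, adjusted p = 0.0762; adjusted p = 0.0425 without knockout replicate 1). The absence of the letters says nothing beyond this window.

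Most cholesterol synthesis genes rose. Of 23 genes 17 (73.9%) rose, 0 fell and 6 were not called (median 0.44), beside 18.9% of all genes rising and 19.6% falling. Fdps, which makes farnesyl diphosphate, was at 199, 187 and 162 CPM in the knockout and 119, 108 and 109 in wild type (log2 fold change 0.71 ± 0.08 SE, adjusted p = 2.61e-05), and Pmvk, an earlier kinase of the pathway, at 41, 36.8 and 32.1 against 21.4, 23.3 and 19.6 (log2 fold change 0.78 ± 0.13 SE, adjusted p = 0.000346). The groups did not overlap for either gene, as for 53.7% of all genes tested. Tm7sf2, a sterol reductase, rose by 1.05 and the sterol carrier Stard4 by 0.78 (log2). Srebf2, the factor that governs the pathway, was at 358, 379.8 and 364 against 303, 284 and 324 CPM and was not called (log2 fold change 0.27 ± 0.10 SE, adjusted p = 0.0507); it was called in 5 other settings, with adjusted p values of 0.00168 on the 6 libraries alone and 0.0326 to 0.0454 in the others. The rises numbered 15 without knockout replicate 2, and 13 to 17 over the fits that left out 1 library. Of the 17 rises 13 were highest in knockout replicate 1 and 3 (17.6%) in replicate 2. Of the 3127 rises of all genes 699 were highest in replicate 1 and 1539 (49.2%) in replicate 2.

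Fatty acid and sugar metabolism shifted in parts. Rises took 36.8% of fatty acid synthesis, 47.6% of fatty acid oxidation and 41.7% of glycolysis genes, beside 18.9% of all genes. Falls took 10.5%, 4.8% and 12.5% of them, beside 19.6% of all genes. Of 19 fatty acid synthesis genes 7 rose and 2 fell: the desaturases Scd1 (0.87) and Scd2, at 1005, 1095 and 1153 against 658, 580.3 and 609.6 CPM (log2 fold change 0.82 ± 0.10 SE, adjusted p = 2.62e-05), rose, Acaca (-0.39) and Acly (-0.26) fell, and Fasn, the synthase, was not called (log2 fold change -0.12 ± 0.09 SE, adjusted p = 0.32). Of 21 fatty acid oxidation genes 10 rose and 1 fell, with Acadl at 0.84 and Cpt1a, the rate-limiting mitochondrial importer, at 92.1, 96.4 and 116 against 73.9, 64.9 and 67.9 CPM (log2 fold change 0.56 ± 0.10 SE, adjusted p = 0.000841). Of 24 glycolysis genes 10 rose and 3 fell. Ldhb, the lactate dehydrogenase subunit of oxidative tissues, was among the 10 rises with the lowest p, at 482, 444 and 446 against 133.7, 116 and 107 CPM (log2 fold change 1.94 ± 0.12 SE, adjusted p = 2.9e-07). Hk1, hexokinase 1, rose (log2 fold change 1.00 ± 0.19 SE, adjusted p = 0.00246), as did Aldoc (0.91) and Pfkl (0.37). Pdk1, which switches pyruvate dehydrogenase off, was at 120.4, 131 and 164 against 286, 289.7 and 297 CPM and fell (log2 fold change -1.07 ± 0.13 SE, adjusted p = 6.84e-05), and Pgam1 fell by 0.80 (log2). Respiratory chain genes were seldom called: of 84 genes, 5 rose, 7 fell and 72 were not called (median -0.02). Rises numbered 3 without knockout replicate 1 or wild-type replicate 1 and 2 without wild-type replicate 3, and falls numbered 3 without knockout replicate 2 or wild-type replicate 2 and 4 without knockout replicate 3.

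Claudins and other tight junction genes rose in part, 52.4% of those tested beside 18.9% of all genes. Tight junctions seal epithelia, and claudins are their barrier-forming membrane proteins. Of 27 tight junction genes in the files, 21 passed the filter, and 11 of these rose, 2 fell and 8 were not called (median 0.58). Cldn4 (ENSMUSG00000047501, chromosome 5, 134945126 to 134946934 in GRCm38) had the lowest p of all rises, at 531, 625 and 490.4 CPM in the knockout and 136, 117 and 115 in wild type (log2 fold change 2.16 ± 0.10 SE, adjusted p = 2.04e-08). Cldn6 was at 149.7, 183 and 129 against 56.5, 56.6 and 59.7 CPM (log2 fold change 1.42 ± 0.15 SE, adjusted p = 2.9e-05), Cldn3 at 20.6, 27.5 and 23.4 against 9.14, 5.40 and 4.70 (log2 fold change 1.87 ± 0.24 SE, adjusted p = 0.000115) and Cldn7 at 41.6, 55.9 and 48.6 against 20.7, 18.2 and 19.1 (log2 fold change 1.33 ± 0.19 SE, adjusted p = 0.000194). Each knockout library was above each wild-type library for all 4 claudins, and the groups did not overlap for 53.7% of all genes tested. Amot, an angiomotin that ties junctions to Hippo signalling, rose by 2.04 ± 0.27 (adjusted p = 0.00036). The scaffold Tjp1 was not called (log2 fold change 0.05 ± 0.10 SE, adjusted p = 0.71). The falls numbered 1 in each fit that left out 1 library, and 9 of the 11 rises were highest in knockout replicate 2.

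Keratins of simple epithelia and genes of the desmosome rose in part. Of 19 tested genes 9 (47.4%) rose and 2 (10.5%) fell (median 0.69), beside 18.9% and 19.6% of all genes. Krt18, which pairs with Krt8, was at 282, 469 and 171 against 27.5, 20.3 and 24.5 CPM (log2 fold change 3.66 ± 0.62 SE, adjusted p = 0.00439), and Krt7 at 27.7, 32.2 and 21.7 against 1.60, 0.300 and 1.17 (log2 fold change 4.61 ± 0.34 SE, adjusted p = 2.06e-06). Dsp, desmoplakin, which anchors keratin filaments to the desmosome, was at 124, 204 and 167 against 33.6, 27 and 28.2 CPM (log2 fold change 2.47 ± 0.48 SE, adjusted p = 0.00722), and the desmosomal cadherin Dsc2 rose by 2.88 (log2). Krt19 was at 44.6, 103 and 27.6 against 7.48, 3.90 and 2.90 CPM (log2 fold change 3.58 ± 0.86 SE, adjusted p = 0.0179); its log2 fold change was 2.90 without knockout replicate 2. It lost its call without wild-type replicate 2 or 3 (adjusted p 0.0604 and 0.0664) and with limma-voom (adjusted p = 0.0567). All 9 rises were highest in knockout replicate 2. Without that library 8 rose and 0 fell; 0 also fell without knockout replicate 1 or wild-type replicate 2 or 3, and 1 without wild-type replicate 1. Krt7, Krt8 and Krt18 are also among the trophoblast markers given above, whose part in these counts was not tested.

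Basement membrane genes rose in part. Of 14 laminin, nidogen and perlecan genes 8 (57.1%) rose and 0 fell (median 0.53), beside 18.9% and 19.6% of all genes. Highest in knockout replicate 2 were 7 of the 8 rises (87.5%, beside 49.2% of all rises), as were the sums of feeder and trophoblast markers. Lama5, the alpha chain of the laminin of epithelia and of the early embryo, was at 844, 814 and 777 against 354, 303 and 332 CPM (log2 fold change 1.30 ± 0.08 SE, adjusted p = 1.33e-07), among the 10 rises with the lowest p. Lamb3, a chain of the laminin of skin, was at 5.42, 7.96 and 5.59 against 1.09, 0.799 and 1.04 CPM (log2 fold change 2.67 ± 0.30 SE, adjusted p = 1.56e-05). Lama1, a chain of early basement membranes, was not called (log2 fold change -0.67 ± 0.56 SE, adjusted p = 0.396). Of 34 tested collagens of 44 in the tables, 17 rose and 3 fell (median 1.00). Col4a2, a chain of the basement membrane collagen, was at 87.3, 94 and 54.6 against 25.6, 21.1 and 20.3 CPM (log2 fold change 1.81 ± 0.27 SE, adjusted p = 0.000928), and Col12a1 at 77.8, 164 and 73.3 against 26.5, 21.8 and 23.5 (log2 fold change 2.13 ± 0.45 SE, adjusted p = 0.00919). Col1a1, a fibroblast collagen, was at 293, 572 and 257 against 114, 91.1 and 91.3 CPM (log2 fold change 1.92 ± 0.43 SE, adjusted p = 0.0132). In these 3 genes the groups did not overlap, as for 53.7% of all genes tested, and all 3 were highest in knockout replicate 2. So were 14 of the 17 collagen rises (82.4%, beside 49.2% of all rises). Col6a5 went the other way, at 0.678, 0.671 and 0.776 against 12.6, 16.8 and 15.6 CPM (log2 fold change -4.40 ± 0.42 SE, adjusted p = 7.93e-06). Without knockout replicate 2, 12 collagens rose and 3 fell, and 1 fell without knockout replicate 1 or wild-type replicate 2 or 3. Feeder markers had their highest sum in the same library, Col1a1 among them, and their part in the collagen rises was not tested.

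Most actin contractile genes rose. Of 32 actin contractile genes 21 (65.6%) rose and 2 (6.25%) fell (median 0.62), beside 18.9% and 19.6% of all genes. Tpm1, a tropomyosin, was among the 10 largest rises in CPM of all genes, at 681, 953 and 558 against 202, 195 and 202 (log2 fold change 1.87 ± 0.27 SE, adjusted p = 0.00128). Acta2, smooth muscle actin, was at 172, 298 and 121 against 47, 34.9 and 29.8 CPM (log2 fold change 2.40 ± 0.46 SE, adjusted p = 0.00648), and Cnn1, calponin, at 46.2, 73.2 and 29.6 against 6.74, 5.30 and 7.66 (log2 fold change 2.91 ± 0.53 SE, adjusted p = 0.00486). Actg2 was at 6.67, 13.9 and 4.58 against 2.34, 0.700 and 0.829 CPM (log2 fold change 2.63 ± 0.59 SE, adjusted p = 0.00725); its log2 fold change was 3.44 without wild-type replicate 1. The ubiquitous actin Actg1 rose (log2 fold change 0.60 ± 0.13 SE, adjusted p = 0.00301). Srf, the factor known to drive contractile genes, was not called (log2 fold change -0.12 ± 0.09 SE, adjusted p = 0.349), and Actn4, a non-muscle actinin, fell (log2 fold change -0.78 ± 0.08 SE, adjusted p = 1.22e-05). Of the 21 rises 19 (90.5%) were highest in knockout replicate 2, and without that library 20 rose and 1 fell; the falls were also 1 in the other fits without 1 library, except that without knockout replicate 3. Acta2 is also a feeder marker, and the part of feeder cells in these rises was not tested. Of 23 YAP/TEAD genes and targets 13 (56.5%) rose and 5 (21.7%) fell, with 3 falls without knockout replicate 1 or wild-type replicate 3. Leaving out 1 library gave 9 to 12 rises. Highest in knockout replicate 2 were 10 of the 13 rises (76.9%, beside 49.2% of all rises). Of the 12 in the most abundant quintile 5 (41.7%) fell, close to the 40.1% of all genes there. Ankrd1 (2.89 ± 0.61, adjusted p = 0.00485) and Tead3 (1.53) rose. Cyr61 was at 280.1, 445 and 237 against 152, 131 and 146 CPM (log2 fold change 1.16 ± 0.29 SE, adjusted p = 0.0169) and was at the threshold without wild-type replicate 2 or 3 (adjusted p 0.0513 and 0.05). Yap1 itself fell (log2 fold change -0.28 ± 0.08 SE, adjusted p = 0.0127) and lost its call without knockout replicate 1 or wild-type replicate 3.

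**Figure D5:**
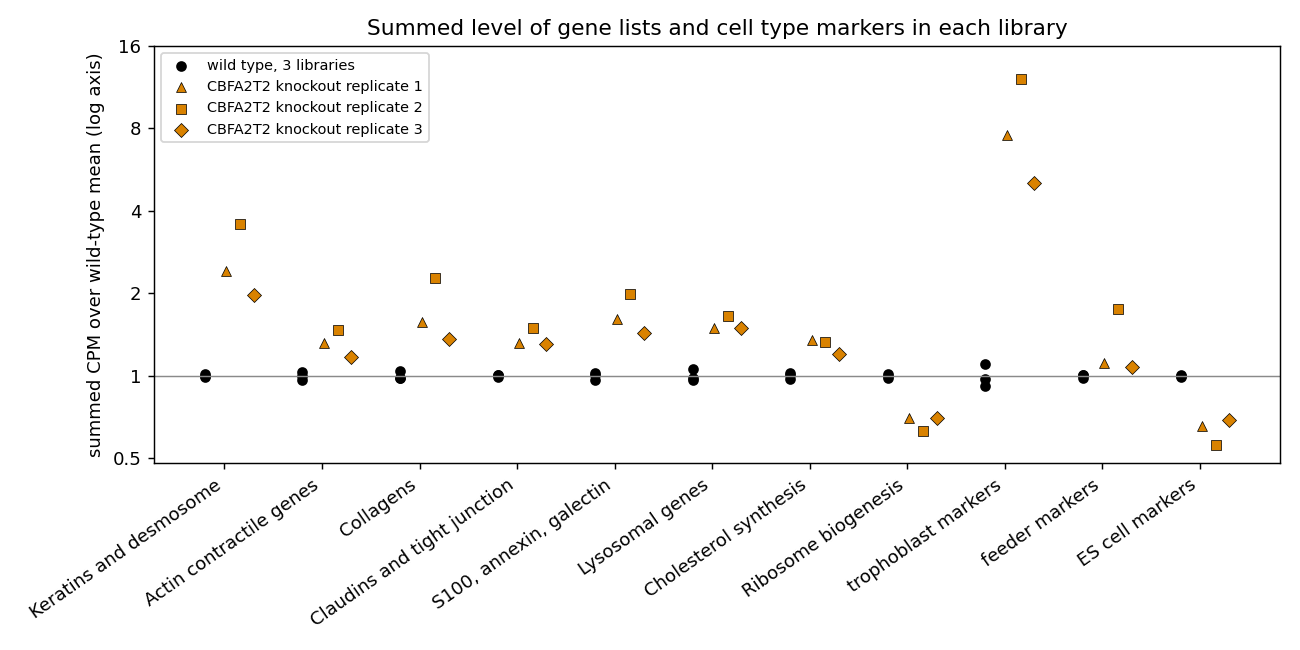
Summed CPM of 8 gene lists and 3 marker lists in each library, divided by the mean of the 3 wild-type libraries (log axis; black circles, wild type; orange, the 3 CBFA2T2 knockout replicates by shape). Keratins, contractile genes and collagens are highest in knockout replicate 2, as are trophoblast and feeder markers, while lysosomal and cholesterol genes differ less between the 3 knockout replicates.

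Calcium-binding S100 proteins, annexins and galectins rose in 13 of 23 tested genes (56.5%) and fell in 2 (8.7%), with a median of 0.78. Of all genes tested 18.9% rose and 19.6% fell. S100a13 was at 29.2, 29 and 19 against 3.88, 3.30 and 1.59 CPM (log2 fold change 3.14 ± 0.35 SE, adjusted p = 0.000102) and its neighbour in name S100a1 at 8.59, 10.5 and 8.77 against 1.60, 0.899 and 0.621 (log2 fold change 3.11 ± 0.38 SE, adjusted p = 6.09e-05). Anxa3, a phospholipid-binding annexin, was at 23.2, 39.9 and 11.6 against 3.26, 5.50 and 4.63 CPM (log2 fold change 2.52 ± 0.49 SE, adjusted p = 0.00465). Lgals9, galectin 9, fell to 18, 19.3 and 39.7 CPM from 58.5, 57.1 and 54.2 (log2 fold change -1.16 ± 0.28 SE, adjusted p = 0.0098), with replicate 3 above the other knockout replicates but below wild type. Of the 13 rises, 9 (69.2%, beside 49.2% of all rises) were highest in knockout replicate 2, where the sums of feeder and trophoblast markers were highest. Without that library 12 rose and 2 fell.

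Class I antigen presentation genes rose more than they fell in number, while interferon-stimulated genes stayed near the background shares. Of 30 MHC class I and antigen processing genes 10 (33.3%) rose and 2 (6.7%) fell (median 0.55), beside 18.9% and 19.6% of all genes. B2m, the light chain of every class I molecule, was at 55.2, 68.5 and 41.7 CPM in the knockout and 24.4, 18.7 and 19.3 in wild type (log2 fold change 1.40 ± 0.27 SE, adjusted p = 0.00298), and the classical heavy chain H2-K1 at 55.8, 59.3 and 38 against 18.7, 21.7 and 20.4 (log2 fold change 1.34 ± 0.18 SE, adjusted p = 0.000143). Tap1, a subunit of the peptide transporter, was at 15.3, 23.4 and 15.8 against 7.65, 7.99 and 6.56 CPM (log2 fold change 1.30 ± 0.21 SE, adjusted p = 0.000378). Knockout and wild-type ranges were apart for these genes, which are low in wild type, as they were for 53.7% of all genes tested. H2 genes share sequence with one another, so single heavy chains are uncertain. Psmb10 fell (log2 fold change -1.12 ± 0.15 SE, adjusted p = 6.19e-05), as did H2-M5 (log2 fold change -1.38 ± 0.21 SE, adjusted p = 0.000259). Of 35 interferon-stimulated genes 8 rose and 7 fell, near the background shares of 18.9% and 19.6%; 5 rose without knockout replicate 2 or wild-type replicate 3, and 9 of the 10 rises in the class I list were highest in knockout replicate 2. Irf1 rose (log2 fold change 0.86 ± 0.10 SE, adjusted p = 3.21e-05), while Ddx58, the RNA sensor RIG-I, fell (log2 fold change -1.35 ± 0.18 SE, adjusted p = 7.95e-05), and Irf7, the master regulator of the type I response, was not called (log2 fold change 0.97 ± 0.52 SE, adjusted p = 0.157).

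E-protein and ID genes changed in RNA. All 7 E-protein and ID genes were called, 6 up and 1 down, beside 38.5% of all genes called in either direction. ID proteins block E-proteins from binding DNA. Id4 was at 15.4, 15.4 and 17.7 against 3.77, 2.30 and 2.76 CPM (log2 fold change 2.42 ± 0.20 SE, adjusted p = 1.43e-06) and Id3 at 45.4, 53.1 and 33 against 13, 10.5 and 9.87 (log2 fold change 1.97 ± 0.21 SE, adjusted p = 3.36e-05), while Id1 (0.63) and Id2 (0.40) rose less. Id1 lost its call without knockout replicate 2 or wild-type replicate 3, and Id2 without knockout replicate 1 or 3 or wild-type replicate 2 or 3. Among the E-proteins, Tcf12 was at 66.1, 74.4 and 82.1 against 52, 53.7 and 55.9 CPM (log2 fold change 0.46 ± 0.10 SE, adjusted p = 0.00286). Tcf3 fell (log2 fold change -0.41 ± 0.08 SE, adjusted p = 0.00177), and Tcf4 rose (log2 fold change 0.39 ± 0.11 SE, adjusted p = 0.012), a call lost without knockout replicate 2 or wild-type replicate 1.

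Notch genes moved in both directions. Of 23, 8 (34.8%) rose and 6 (26.1%) fell (median 0.24), beside 18.9% and 19.6% of all genes. The receptor Notch3 was at 460.4, 488 and 425 CPM in the knockout and 131, 104 and 115 in wild type (log2 fold change 1.97 ± 0.12 SE, adjusted p = 5.21e-07). The receptor Notch4 fell to 6.39, 6.62 and 6.44 CPM from 21, 19.5 and 25.1 (log2 fold change -1.75 ± 0.18 SE, adjusted p = 7.46e-06). Among targets of the pathway, Hes1 rose, at 90.3, 146 and 96.3 against 50.8, 49.1 and 51.4 CPM (log2 fold change 1.14 ± 0.18 SE, adjusted p = 0.000687) and so did Hey1 (1.28) and Nrarp (1.31). Rbpj, the DNA-binding protein of the pathway, was at 47.5, 53.3 and 54.6 against 140.2, 143 and 167 CPM (log2 fold change -1.54 ± 0.13 SE, adjusted p = 2.54e-06), and the ligand Jag1 fell (-0.68). Of 13 Hedgehog genes 3 (23.1%) rose and 4 (30.8%) fell, beside 18.9% and 19.6% of all genes. The falls included Ptch1 (-0.65), Gli1 (-0.64) and Gli2 (-0.64), and 1 gene rose without knockout replicate 1 or wild-type replicate 3.

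In the insulin-like growth factor axis, 9 of 19 genes (47.4%) rose and 2 (10.5%) fell, beside 18.9% and 19.6% of all genes. The adaptor Irs2 was at 121, 154 and 115 against 35.6, 35.6 and 36.5 CPM (log2 fold change 1.86 ± 0.25 SE, adjusted p = 0.000485). Irs1 was at 18.3, 22.7 and 17.1 against 4.34, 4.0 and 6.42 CPM (log2 fold change 1.97 ± 0.41 SE, adjusted p = 0.00494), though 30.9% of its exon bases are shared with Gm9747. Igfbp3, a binding protein that holds the growth factors, was at 138, 133 and 95.3 against 36.9, 32.7 and 33.4 CPM (log2 fold change 1.83 ± 0.21 SE, adjusted p = 0.000117). Grb10, an imprinted adaptor that restrains the receptor, fell to 66.3, 64.8 and 77.6 CPM from 247, 256 and 270.1 (log2 fold change -1.89 ± 0.09 SE, adjusted p = 2.04e-08). The receptor Igf1r was not called (log2 fold change 0.38 ± 0.18 SE, adjusted p = 0.115), with an adjusted p of 0.0453 without wild-type replicate 3 and 0.0209 on the 6 libraries alone. Efnb1, a membrane-bound ephrin ligand on chromosome X, was at 39.9, 40.9 and 47.5 against 6.91, 5.80 and 6.21 CPM (log2 fold change 2.75 ± 0.13 SE, adjusted p = 2.04e-08), and Flt1, a receptor for VEGF, at 66.5, 76 and 73.7 against 7.94, 5.0 and 4.21 (log2 fold change 3.63 ± 0.18 SE, adjusted p = 4.58e-08). Both were named for a low p, and their groups did not overlap, as for 53.7% of all genes tested.

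Nuclear receptors, those for retinoic acid among them, fell in larger number than they rose. Of 29, 10 (34.5%) fell and 3 (10.3%) rose (median -0.11), beside 19.6% and 18.9% of all genes. Rarg, a retinoic acid receptor, was at 81.9, 78 and 83.2 CPM in the knockout and 260.1, 291 and 299 in wild type (log2 fold change -1.81 ± 0.08 SE, adjusted p = 2.04e-08), and Rara fell less (log2 fold change -0.66 ± 0.11 SE, adjusted p = 0.000275). Rxrg, a retinoid partner receptor, was at 0.283, 0.240 and 0.0776 against 3.26, 5.70 and 4.56 CPM (log2 fold change -4.36 ± 0.49 SE, adjusted p = 1.72e-05). Lef1, a DNA-binding effector of WNT signalling, was at 7.46, 6.90 and 7.61 against 78.4, 86.8 and 102 CPM, with the lowest p of all genes (log2 fold change -3.61 ± 0.14 SE, adjusted p = 6.26e-09). The ligand Wnt3 rose from 1.77, 0.999 and 1.73 CPM to 12.7, 17.5 and 9.16 (log2 fold change 3.09 ± 0.29 SE, adjusted p = 5.02e-06), and Wnt4 from 0.571, 1.10 and 1.31 to 7.80, 20.8 and 5.98 (log2 fold change 3.58 ± 0.89 SE, adjusted p = 0.0149); its log2 fold change was 2.83 without knockout replicate 2, and it was not called without wild-type replicate 1 (adjusted p = 0.0554). Myrf, a membrane-tethered transcription factor (ENSMUSG00000036098, chromosome 19, 10208272 to 10240748 in GRCm38), was at 14.2, 16.5 and 14.6 against 149, 157 and 167 CPM (log2 fold change -3.38 ± 0.15 SE, adjusted p = 2.78e-08), and Fblim1, an adaptor of focal adhesions, at 96.7, 102 and 107 against 296, 307 and 316 (log2 fold change -1.59 ± 0.08 SE, adjusted p = 2.78e-08). In none of these genes did a knockout library enter the wild-type range, and the groups did not overlap for 53.7% of all genes tested.

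Carriers of solutes rose and fell in numbers close to the background for falls and somewhat above it for rises. Of 261 tested genes of 369 in the tables, 70 (26.8%) rose and 49 (18.8%) fell. Slc39a14, a zinc and iron importer, was at 21.4, 20.5 and 17.9 against 110.1, 121 and 119 CPM (log2 fold change -2.54 ± 0.14 SE, adjusted p = 4.58e-08). Slc7a7, an exchanger of cationic amino acids, fell to 18.9, 24.2 and 23.8 CPM from 86.2, 85.4 and 88.7 (log2 fold change -1.96 ± 0.13 SE, adjusted p = 2.8e-07). Slc19a3, the thiamine carrier, rose to 8.93, 9.16 and 11.3 CPM from 1.83, 0.700 and 1.17 (log2 fold change 2.91 ± 0.27 SE, adjusted p = 4.19e-06). Few genes went from near absence to expression or back: 28 genes had a mean under 1 CPM in wild type and at least 5 in the knockout, and 13 the reverse. The first set held Prox1, a homeobox factor of lymphatic vessels and liver, at 25.1, 25.4 and 22.3 against 1.26, 0.200 and 1.31 CPM (log2 fold change 4.59 ± 0.74 SE, adjusted p = 0.00208), and Mcoln3, a relative of Mcoln1, at 5.99, 6.33 and 4.73 against 0.571, 0.300 and 0.483 (log2 fold change 3.58 ± 0.37 SE, adjusted p = 9.96e-06). The second held Chrna9, a subunit of the acetylcholine receptor, at 0.791, 0.575 and 0.776 against 6.91, 8.09 and 6.91 CPM (log2 fold change -3.35 ± 0.33 SE, adjusted p = 6.17e-06).

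Some genes outside these groups were named for a low p, a choice that favours genes with little spread between libraries. Others, G3bp2, Trim28 and Malat1, were named for a large change in CPM between groups that did not overlap, a choice that favours abundant RNAs. Taok3, a kinase of stress-activated pathways, was at 102, 113 and 132 CPM in the knockout and 33.4, 30.5 and 29.6 in wild type (log2 fold change 1.89 ± 0.10 SE, adjusted p = 6e-08). Copz2, a coat protein of vesicles between Golgi and endoplasmic reticulum, was at 16.4, 18.7 and 19.2 against 2.17, 1.90 and 1.38 CPM (log2 fold change 3.30 ± 0.20 SE, adjusted p = 1.88e-07). Plagl1, an imprinted zinc-finger gene, was at 94.4, 87.6 and 86.5 against 17.2, 11.4 and 12.8 CPM (log2 fold change 2.68 ± 0.16 SE, adjusted p = 2.8e-07). The lowest knockout library was well above the highest wild-type library for these 3 genes, which their choice by low p makes likely. On the falling side, Fam169a was at 123.4, 119 and 134.2 against 386, 426 and 437 CPM (log2 fold change -1.73 ± 0.08 SE, adjusted p = 2.04e-08), with 26.1% of its exon bases shared with Nsa2. G3bp2, a stress granule protein, was at 250.4, 229 and 225 against 802, 833 and 854 CPM (log2 fold change -1.82 ± 0.12 SE, adjusted p = 8.84e-07). Among the most abundant RNAs, Trim28, a co-repressor that silences transposons, fell to 1089, 1012 and 1158 CPM from 2116, 2067 and 2175 (log2 fold change -0.96 ± 0.07 SE, adjusted p = 4.73e-07), and the nuclear long noncoding RNA Malat1 rose to 1525, 1803 and 1494 CPM from 1025, 1021 and 998 (log2 fold change 0.66 ± 0.08 SE, adjusted p = 2.61e-05).

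Several other families were divided. Of 21 ETS factors 8 rose and 8 fell, or 38.1% each, beside 18.9% and 19.6% of all genes. Elf3, an epithelial member, was at 155, 139 and 197 against 52.9, 42.7 and 40.3 CPM (log2 fold change 1.85 ± 0.13 SE, adjusted p = 1.42e-06), and Ets1 rose by 1.63 (log2), while Etv5, known as a target of FGF signalling, was at 136, 140.0 and 107 against 397, 411 and 421 CPM (log2 fold change -1.68 ± 0.13 SE, adjusted p = 2.56e-06). Of 27 heparan sulfate and proteoglycan genes 9 (33.3%) rose and 2 (7.4%) fell, with 1 fall without wild-type replicate 2 or 3. The cell-surface proteoglycan Gpc6 was at 9.83, 7.10 and 6.05 against 3.88, 2.20 and 3.87 CPM (log2 fold change 1.18 ± 0.26 SE, adjusted p = 0.00305) and the sulfotransferase Hs6st2 rose by 1.35 (log2). Sdc1, another surface proteoglycan, fell with overlapping groups (log2 fold change -0.45 ± 0.13 SE, adjusted p = 0.0136) and lost its call without knockout replicate 2 or 3 or wild-type replicate 2 or 3 (adjusted p 0.0549 to 0.0723). Of 28 semaphorin, plexin and neuropilin genes 6 rose and 5 fell, at 21.4% and 17.9% near the background. Of 325 zinc-finger genes named Zfp, 43 (13.2%) rose and 59 (18.2%) fell, beside 18.9% and 19.6% of all genes, with 38, 39 and 37 falls without knockout replicate 2, wild-type replicate 2 and wild-type replicate 3 and 28 rises without wild-type replicate 2. Zfp57, which protects imprints from demethylation, fell to 33.5, 51.3 and 45.4 CPM from 276, 313 and 289 (log2 fold change -2.75 ± 0.37 SE, adjusted p = 0.00123). Of 15 Hox genes tested of 38 in the files, 2 (13.3%) rose and 0 fell, with 1 rise without wild-type replicate 2 or 3.

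Families were also scanned by the leading letters of their symbols. Of 236 such stems with at least 8 tested genes, the 6 with the highest median log2 fold change were Xlr (2.39), Krt (1.62), Serpinb (1.44), Cldn (1.37), Wnt (1.17) and Col (0.98), and the 6 with the lowest were Sox (-0.69), Pou (-0.55), Exosc (-0.48), Tex (-0.44), Nol (-0.44) and Dock (-0.38). The median over stems was 0.02. Of all genes 18.9% rose and 19.6% fell, the background for the counts that follow. Of 8 Xlr genes, X-linked genes with near-identical copies, 7 rose and 0 fell, with 4 rises without wild-type replicate 2 or 3 or with a mean of at least 5 CPM, and 2 with limma-voom. Xlr3a was at 41.8, 22.1 and 24.1 against 8.28, 4.80 and 6.42 CPM (log2 fold change 2.14 ± 0.31 SE, adjusted p = 0.000675). Unlike the keratins and collagens, all 7 were highest in knockout replicate 1. Reads cannot be placed with certainty among these copies. Of 14 Sox genes 7 fell and 3 rose, or 4 falls without wild-type replicate 3, and 1 rise without that library or knockout replicate 2. Sox12 was at 92.4, 92.2 and 102 against 164, 184 and 182 CPM (log2 fold change -0.89 ± 0.08 SE, adjusted p = 2.11e-06). Of 14 Tudor and piRNA genes, which silence transposons in the germline, 6 fell and 1 rose (median -0.61). Piwil2 was at 13.2, 13.2 and 11.6 against 40.2, 45.3 and 47.4 CPM (log2 fold change -1.80 ± 0.14 SE, adjusted p = 9.05e-07), Mael (-1.18), Tdrd1 (-1.09) and Mov10l1 (-0.95) fell, and Tdrd7 rose (1.60). The subunits of the exosome (Exosc) and nucleolar proteins (Nol) in the lower group had 6 of 9 and 6 of 10 members falling and 0 rising.

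Chromosomes differed little in their medians, chromosome Y excepted. Median log2 fold changes of the autosomes and X lay between -0.05 (chromosome 11) and 0.06 (chromosome 1). Of 8 Y genes tested, 4 rose and 1 fell, with a median of 2.22. Ddx3y, an RNA helicase, was at 105, 118 and 122 CPM in the knockout and 48.2, 47.4 and 45.7 in wild type (log2 fold change 1.29 ± 0.21 SE, adjusted p = 0.00111). Eif2s3y, a subunit of initiation factor 2, was at 117, 106 and 129 against 26.3, 14.6 and 20.5 CPM (log2 fold change 2.50 ± 0.49 SE, adjusted p = 0.00718), and the demethylase genes Uty (log2 fold change 1.94 ± 0.32 SE, adjusted p = 0.00192) and Kdm5d (log2 fold change 3.08 ± 0.71 SE, adjusted p = 0.00733) also rose. Usp9y was at 0.622, 0.527 and 0.699 against 1.49, 2.60 and 3.80 CPM and fell (log2 fold change -2.09 ± 0.64 SE, adjusted p = 0.0215), a call lost in every fit without 1 library except that without wild-type replicate 1. Y-linked RNA was present in every wild-type library. The labels do not tie the difference to genotype or to the history of the cultures, which cannot be told apart here.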

How the data were processed

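RNA-seq counts of reads per gene were deposited by the authors for each of the 9 libraries, as raw counts in 1 table per library. Reads were aligned with Bowtie, per the submitters' processing notes. The counter, its strand setting and the handling of reads with several matches are not given in these sources, so overlapping genes, antisense partners and near-identical copies are uncertain. The notes name mm9, while the coordinates in the deposited tables are those of GRCm38, which is the build used here. Symbols that had been turned into dates (27) were restored by Ensembl ID.

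Counts were tested with edgeR 4.0.16 (R 4.3.3), the quasi-likelihood test on TMM-scaled counts, all 9 libraries fitted by group. Genes were kept by edgeR's filterByExpr, which left 16532. A gene was called at a Benjamini-Hochberg adjusted p under 0.05 over all of them. CPM are counts divided by the TMM-scaled library total, and log2 fold changes are knockout over wild type. Each SE was derived from the test, as the absolute log2 fold change divided by the square root of the quasi-likelihood F statistic. Files of the 9 libraries were compared for duplicates, and replicates of each group differed by more than counting noise. The fit was tested on simulated data with known changes. Alternatives were DESeq2 1.42.0 size factors and its Wald test, limma-voom (limma 3.58.1), other filters, a fit on the 6 libraries, a replicate block and leaving out each library. Replicate numbers were not treated as pairs.

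By rule, the 10 largest changes in CPM in each direction were named, among called genes whose groups did not overlap. The 10 lowest p-values of called genes in each direction were named too, at a mean of at least 5 CPM in the higher group. Uncharacterised gene models were left out of both. Each list added up to 4 called rises and up to 4 called falls at that level, and its defining member where it had one. Members and lists were chosen with earlier results of these data known. Genes outside the rule were chosen after their values were seen. Among them were the MYC genes, Trp53, Cdkn1a, Tfe3, Mitf, the Y-linked genes, Wnt3, Wnt4, Rxrg, Rara, Scd2 and Prox1. Others were Mcoln3, Chrna9, Hes1, Tap1, Dsc2, Cldn7 and the genes of the printed promoters. Promoter letters are from RefSeq (GRCm38.p6), with 10559 of the tested genes matched by symbol. Library totals of 10309196 to 20129490 limit the precision for low genes. Some genes and a sequence that the rules would name are not reported here.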

Additional observations from a re-analysis of the deposited data

How the results depend on the processing

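The number of genes that rose was 3127 and the number that fell 3240. With DESeq2 size factors they were 3177 and 3165, with the DESeq2 Wald test 3244 and 3230, with limma-voom 3020 and 3285, with no filter 3057 and 3075, with a mean of at least 5 CPM 2732 and 2653, and on the 6 libraries alone 3639 and 3505. Leaving out 1 library gave 2434 to 2861 rises and 2338 to 2950 falls. No gene named here that was called changed direction in any of these settings. The labels do not say that a shared replicate number marks a pairing. Deviations of same-numbered libraries correlated at 0.101, -0.06 and 0.165, and the fit with a replicate block gave 3219 and 3337. With that block Mcm2 and Asns were called (adjusted p 0.0434 and 0.0138), Ppt1 was not (adjusted p = 0.0503), and 10 ribosomal proteins fell in place of 4. The log2 fold changes of 3 genes that were not called changed sign when 1 library was left out: Ulk1 ran from -0.0187 to 0.111, Vim from -0.183 to 0.237 and Nupr1 from -0.104 to 0.0629; the cause was not tested. At a change of at least 2-fold as well, 1191 genes rose and 611 fell. With a mean of at least 5 CPM, which tests fewer genes, the rises were 4 of interferon-stimulated genes, 1 of nuclear receptors, 1 of Sox genes and 0 of Hox genes, and the falls 4 of respiratory chain and 1 of tight junction genes. On the 6 libraries alone 5 glycolysis genes and 4 keratin and desmosome genes fell. No median of the Hox genes could be computed with a mean of at least 5 CPM. Depth limits the lowest quintile of genes, up to 2.70 CPM, where 13.2% rose and 6.4% fell, and a gene there that was not called may still differ.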
